A study of Mus musculus with 12 samples.

Results

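The gene set described here holds the genes of MHC class I and class II antigen presentation, measured in peritoneal macrophages of Nfkbiz-/- and wild-type mice with and without lipopolysaccharide (LPS). A list of 41 genes was taken by symbol, and a gene counted as measured where a probe set carried its symbol and no other. Of the 41 genes, 33 were measured, of 19938 genes measured in all: 19 of the class I arm, 12 of the class II arm, and the class I-like genes Cd1d1 and Mr1. H2-K1, H2-D1, H2-T22, H2-T23, H2-Q6, H2-DMb1 and H2-DMb2 had probe sets only in common with other genes and H2-Q7 had no probe set with a symbol, so the classical class I chains were not analysed here. Of the 33 measured genes, 15 lie in the H-2 complex on chromosome 17 and 18 lie elsewhere.

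The arrays form 4 groups of 3: Nfkbiz-/- cells given 1 µg/ml LPS for 4 h, wild-type cells given the same LPS treatment, untreated Nfkbiz-/- cells, and untreated wild-type cells. Nfkbiz encodes IκBζ, a nuclear member of the IκB family that is induced through Toll-like receptors and binds NF-κB subunits. The mice were female, the wild-type strain is labelled C57Bl/6, and for the knockout neither the strain background nor the deleted stretch of the gene is stated. Cells were washed out of the peritoneal cavity and plated for 2 h with no stated sort, so other peritoneal cells can be present, and nothing in the labels says whether the 3 samples of a group came from separate mice. The p-values therefore reflect only how these samples varied, which may be technical variation.

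Class I molecules carry peptides made in the cytosol. The immunoproteasome (Psmb8, Psmb9, Psmb10, with the activator Psme1 and Psme2) cuts proteins, the transporter Tap1 and Tap2 moves peptides into the endoplasmic reticulum, Erap1 trims them, and a loading complex places them on a heavy chain paired with B2m. Class II molecules carry peptides from endosomes: Cd74, the invariant chain, guards the groove, H2-DM exchanges peptides, H2-O restrains H2-DM, and Ifi30 reduces disulfide bonds of the antigen. The transactivator Ciita drives class II genes and its relative Nlrc5 drives class I genes, both through promoters bound by the RFX complex (Rfx5, Rfxap, Rfxank). Macrophages carry both arms, and interferons are well known inducers of each.

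Promoter windows, from 250 bases before to 50 bases after the transcription start, were found in RefSeq (GRCm38.p6) for 23 of the 33 measured genes, 14 of class I and 8 of class II among them. The 250 bases upstream of 5 genes are shown because they set the promoter types side by side: Tap1, H2-Q4 and Rfx5 differed in at least 1 comparison, and B2m and H2-Aa, chosen after their values were seen, differed in none. They lie at chr17:34187306-34187555, plus strand (Tap1), chr17:35379367-35379616, plus strand (H2-Q4), chr3:94953858-94954107, plus strand (Rfx5), chr2:122147437-122147686, plus strand (B2m) and chr17:34287824-34288073, minus strand (H2-Aa). Each is written 5′ to 3′ on the strand of its gene, with motif matches in capitals.
Tap1: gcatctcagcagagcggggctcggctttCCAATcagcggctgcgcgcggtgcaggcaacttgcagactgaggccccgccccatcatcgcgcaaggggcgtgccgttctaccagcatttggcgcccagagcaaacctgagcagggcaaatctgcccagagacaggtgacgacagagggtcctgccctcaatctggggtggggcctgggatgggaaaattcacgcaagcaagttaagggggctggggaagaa
H2-Q4: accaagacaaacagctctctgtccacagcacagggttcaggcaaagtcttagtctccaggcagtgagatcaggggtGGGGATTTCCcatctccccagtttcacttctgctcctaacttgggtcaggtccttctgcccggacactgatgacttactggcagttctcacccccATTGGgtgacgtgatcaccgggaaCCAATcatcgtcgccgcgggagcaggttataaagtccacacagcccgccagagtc
Rfx5: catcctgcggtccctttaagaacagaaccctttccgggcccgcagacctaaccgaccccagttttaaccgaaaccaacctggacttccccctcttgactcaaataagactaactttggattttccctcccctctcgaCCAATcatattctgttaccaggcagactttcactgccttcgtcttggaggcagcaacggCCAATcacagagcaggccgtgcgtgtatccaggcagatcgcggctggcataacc
B2m: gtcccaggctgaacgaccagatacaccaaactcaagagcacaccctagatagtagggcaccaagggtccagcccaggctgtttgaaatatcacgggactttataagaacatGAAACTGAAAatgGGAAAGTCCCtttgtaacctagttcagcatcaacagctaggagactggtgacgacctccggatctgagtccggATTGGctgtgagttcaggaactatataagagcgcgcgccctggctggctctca
H2-Aa: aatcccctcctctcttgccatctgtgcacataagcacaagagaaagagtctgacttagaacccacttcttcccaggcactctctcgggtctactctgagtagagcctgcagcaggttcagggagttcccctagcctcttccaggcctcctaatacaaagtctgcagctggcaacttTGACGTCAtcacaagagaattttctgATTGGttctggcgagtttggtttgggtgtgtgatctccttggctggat
Capitals mark CCAAT or its complement (the Y box letters, bound by NF-Y), GGG and TTTCC around any 2 bases (kappa-B), GAAA repeated around any 2 bases (the interferon-stimulated response element core) and TGACGTCA (the cyclic AMP response element), each searched on both strands. B2m holds GAAACTGAAA at -139 and GGAAAGTCCC at -126, positions being those of the first base from the start. H2-Q4 holds GGGGATTTCC at -174, and H2-Aa holds TGACGTCA at -74. CCAAT stood in 16 of the 23 windows, 9 of class I and 7 of class II, against 37.4% of all 32851 windows in the table. The interferon-stimulated response element core stood in B2m, Erap1 and Psme1 (3.44% of all windows), kappa-B letters in B2m and H2-Q4 (1.63%), TTCNNNGAA, the gamma-activated sequence, in H2-M3 and Psmb8 (8.3%), and TGACGTCA in H2-Aa (1.79%). Tap1 and Psmb9 lie head to head on opposite strands with 225 bases between their starts, so their windows share 275 of 300 bases. The CCAAT of Tap1 at -222 and its complement in Psmb9 at -8 are the same bases, counted in both windows. A match is a stretch of letters and not a shown binding site.

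Values are RMA intensities of probe sets on a linear scale, which cannot be compared between genes. Differences are given on the log2 scale with the standard error of the limma fit over all 12 arrays, and "called" means a Benjamini-Hochberg adjusted p below 0.05 over all 19938 genes. Nfkbiz itself had 1568, 1335 and 1634 in knockout cells with LPS, against 3371, 3786 and 3079 in wild-type cells with LPS. Its knockout arrays lay below the wild-type arrays in both treatments (-1.17 with LPS, -0.65 untreated), although where its probe set lies relative to the deletion is not known here. Of 8 macrophage markers, 7 stood between the 96.99th percentile of all genes by mean level (Mertk) and the 99.96th (Lyz2), and Fcgr1 stood at the 85.16th with 236.6 to 2455 across arrays. The 7 B cell markers stood between the 11.85th percentile (Cr2) and the 67.28th (Cd79a). A pair of arrays stood apart from their own groups in the mean log2 level of 16 interferon-stimulated genes such as Ifit1 and Mx1. This level was 12.43, 12.47 and 12.67 in knockout cells with LPS and 11.51, 12.35 and 9.83 in wild-type cells with LPS, and 8.99, 8.73 and 10.55 in untreated knockout cells and 8.69, 8.68 and 7.98 in untreated wild-type cells. Replicate 3 of wild-type cells with LPS was low, and replicate 3 of untreated knockout cells was high. The same arrays stood out in the class I arm: within its group the low array was the lowest for 16 of 19 class I genes, and the high array was the highest for 17 of 19. They were not alone in this arm. Wild-type LPS replicate 2 was the highest for 16 of 19 class I genes, and untreated wild-type replicate 1 for 14 of 19. Results are also given without the 2 arrays of deviating interferon-stimulated level.

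In knockout cells, class I genes were higher with LPS than untreated: 12 of the 19 genes rose and the other 7 were not called. The median difference was 0.81 over the class I arm and 0.07 over all genes, of which 45.7% were called, 21.9% higher and 23.8% lower. In wild-type cells 4 of 19 class I genes rose, Tap1, Tap2, Psme2 and Nlrc5, with a median of 0.28. Of all genes 28.1% were called there, 9.53% higher and 18.5% lower, and the median was 0.04. With quantile normalization 7 rose (median 0.39), where 27.7% of all genes were called, 2459 of those 5525 higher, with a median of 0.03. With centring on the 75th percentile 8 rose (median 0.43). That setting called 51.1% of all genes, 7416 of those 10190 higher, with a median of 0.19. Tap1, a subunit of the peptide transporter, had 5249, 4932 and 6031 in knockout cells with LPS, against 1623, 1204 and 2168 in untreated knockout cells. It had 3339, 5234 and 1546 in wild-type cells with LPS, against 1224, 1105 and 809.7 in untreated wild-type cells. Tap1 rose 3.33-fold in knockout cells (1.73 ± 0.36, adjusted p = 0.00222) and 2.91-fold in wild-type cells (1.54 ± 0.36, adjusted p = 0.00688). In both genotypes every LPS array lay above every untreated array, and the spread was widest in wild-type cells with LPS, where replicate 3 was lowest.

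Tap2, the partner of Tap1, had 1699, 1686 and 2077 in knockout cells with LPS, against 615.9, 567.0 and 627.1 in untreated knockout cells. Wild-type cells had 1128, 1552 and 966.8 with LPS, against 589.2, 520.3 and 505.0 untreated. The difference was 1.59 ± 0.15, adjusted p = 8.63e-06 in knockout cells and 1.15 ± 0.15, adjusted p = 1.39e-04 in wild-type cells, with no overlap of treated and untreated arrays in either. Tapbpl, a tapasin relative that edits peptides outside the loading complex, had 1279, 1409 and 1383 in knockout cells with LPS, against 515.8, 482.5 and 566.4 in untreated knockout cells. The same gene had 512.3, 619.6 and 497.3 in wild-type cells with LPS, against 534.6, 454.2 and 465.0 in untreated wild-type cells, so the wild-type groups overlapped. Tapbpl rose in knockout cells (1.38 ± 0.10, adjusted p = 1.56e-06) and was not called in wild-type cells (0.16 ± 0.10, adjusted p = 0.275). The other loading genes were not called: Tapbp, the tapasin of the loading complex, had 0.28 in knockout cells and 0.19 in wild-type cells, and the chaperones Calr and Canx and the thiol oxidoreductase Pdia3 lay between -0.17 and -0.06. With the replicate number as a block within each genotype, Tapbp passed in knockout cells (adjusted p = 0.0410).

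**Figure D1:**
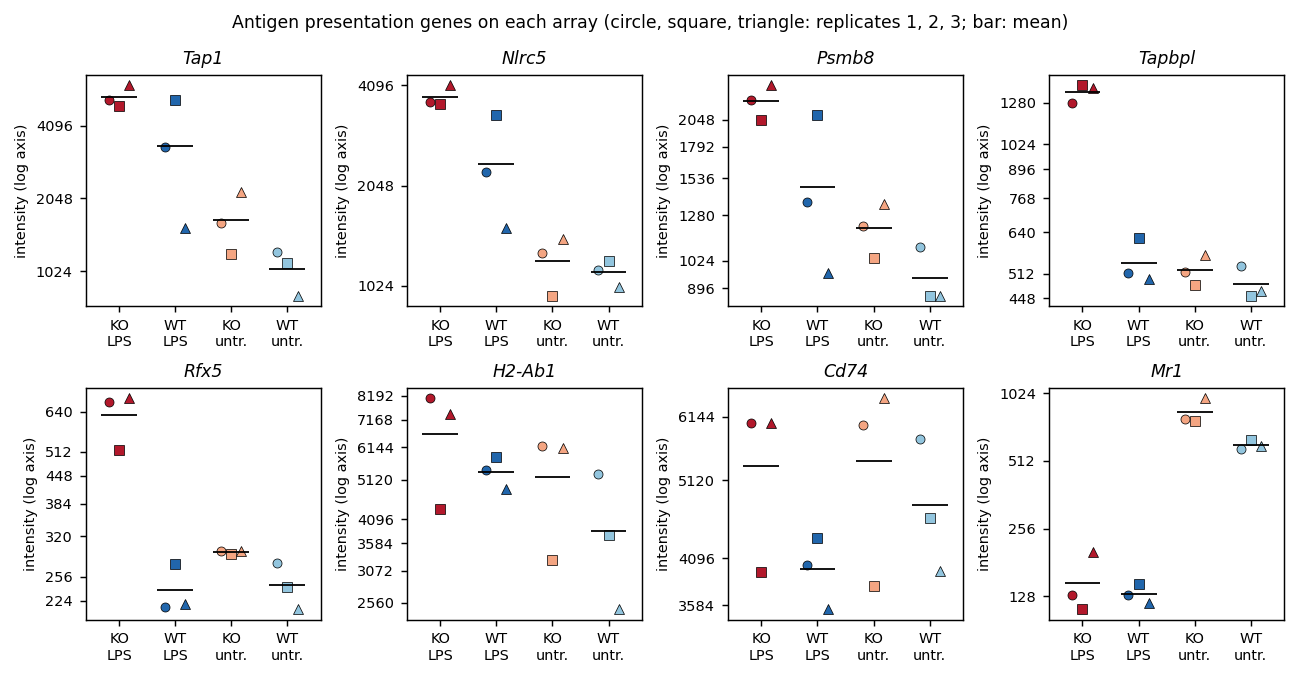
Intensity of selected antigen presentation genes on every array, on a log axis, with 1 point per array and 1 bar per group at the group mean, for knockout and wild-type cells with LPS and untreated. Tap1 is higher with LPS in both genotypes, while for Tapbpl and Rfx5 the 3 knockout arrays with LPS lie above all arrays of the other groups.

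The proteasome genes rose together in knockout cells with LPS. Psmb8, an inducible catalytic subunit, had 2251, 2048 and 2425 in knockout cells with LPS, against 1212, 1039 and 1356 in untreated knockout cells. Its wild-type values were 1368, 2092 and 962.8 with LPS and 1095, 862.5 and 862.2 untreated. The knockout difference was 0.90 ± 0.22, adjusted p = 0.00657, and the wild-type one was 0.59 ± 0.22, adjusted p = 0.0733, not called. Psmb9 (1.06) and Psmb10 (0.99), the other inducible subunits, and Psme1 (0.60) and Psme2 (0.81), the subunits of the PA28 activator, also rose in knockout cells. In wild-type cells Psme2 rose by 0.82, a size close to that in knockout cells, while Psmb9, Psmb10 and Psme1 had 0.67, 0.26 and 0.27 and were not called. Psme1 missed the threshold without knockout LPS replicate 1 or 3 or untreated knockout replicate 2 (adjusted p 0.0576 to 0.0871).

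Nlrc5, the class I transactivator, had 3659.7, 3607 and 4101 in knockout cells with LPS, against 1282, 955.8 and 1419 in untreated knockout cells. It had 2248, 3340.2 and 1523 in wild-type cells with LPS, against 1146, 1214 and 1016 in untreated wild-type cells. The rise was 1.65 ± 0.23, adjusted p = 1.44e-04 in knockout cells and 1.01 ± 0.23, adjusted p = 0.00634 in wild-type cells. Nlrc5 has 19 probe sets, and all 19 were called higher in both genotypes, by 1.65 to 2.67 (median 2.31) in knockout cells and by 0.84 to 1.69 (median 1.47) in wild-type cells. The brightest probe set, which stands for the gene in all counts, lay at or near the low end of these ranges. Among the chains, the Qa-region gene H2-Q4 rose in knockout cells (0.93 ± 0.23, adjusted p = 0.00674) and was not called in wild-type cells (0.41 ± 0.23, adjusted p = 0.225). H2-T10 had 646.7, 1268 and 881.9 in knockout cells with LPS, against 233.1, 489.1 and 264.5 in untreated knockout cells, and was 1.53 higher (adjusted p = 0.0111). In wild-type cells H2-T10 had 444.7, 743.0 and 219.7 with LPS and 250.4, 152.7 and 180.9 untreated, a difference of 1.13 that was not called (adjusted p = 0.0646). H2-M3, which presents formylated peptides, rose by 0.56 in knockout cells, a call lost with the replicate block (adjusted p = 0.0526). The H2-M3 call was also lost without any 1 of the knockout LPS arrays, wild-type LPS replicate 1, or untreated knockout replicate 1 or 2 (adjusted p 0.0501 to 0.123). B2m, the light chain, had 11195, 11176 and 10448 in knockout cells with LPS, against 10540.0, 10815 and 11039.7 in untreated knockout cells, a difference of 0.02. Its wild-type difference was -0.08, and neither was called. The probe set families of H2-Q and H2-T chains are close in sequence, so signal at one such gene can come in part from another.

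Leaving out the 2 arrays with deviating interferon-stimulated level gave 14 class I genes higher with LPS in knockout cells and 10 in wild-type cells. The class I medians were 0.96 and 0.55. Of all genes 38.6% were called in knockout cells, 3200 of those 7694 higher, with a median of 0.05. In wild-type cells 27.4% were called, 1700 of those 5459 higher, with a median of 0.04. Removing replicate 3 of wild-type cells with LPS alone already gave 10 class I genes higher with LPS in wild-type cells. Among the added ones were Psmb8, Psmb9, Psmb10, H2-T10 and H2-Q4. Of all genes 27.4% were called in that refit, 1730 of those 5462 higher. The interferon-stimulated level was higher on every array with LPS than on every untreated array of the same genotype, and its part in the class I result was not tested. Fewer cells of a type and less RNA per cell cannot be told apart in these samples.

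In the class II arm 1 of 12 genes rose and 3 fell in knockout cells (median -0.10), which is 33.3% called against 45.7% of all genes. In wild-type cells 3 fell (median -0.24), a share of 25% that is near the 28.1% of all genes. Centring arrays on their 75th percentile, under which the all-gene median was 0.28 in knockout and 0.19 in wild-type cells, turned the knockout median to 0.11 and left the wild-type one at -0.08, and quantile normalization gave 0.01 and -0.20. H2-DMa, the α chain of the peptide exchanger, had 738.8, 774.5 and 799.4 in knockout cells with LPS, against 1759, 1555 and 1745 in untreated knockout cells. It had 564.2, 599.5 and 577.3 in wild-type cells with LPS, against 1512, 1337 and 1244 in untreated wild-type cells. H2-DMa fell 2.19-fold in knockout cells (-1.13 ± 0.08, adjusted p = 1.59e-06) and 2.34-fold in wild-type cells (-1.23 ± 0.08, adjusted p = 1.26e-06), with no overlap of treated and untreated arrays. Ifi30, the lysosomal thiol reductase, had 3514, 3204 and 3150.0 in knockout cells with LPS, against 8364, 6676 and 6670.2 in untreated knockout cells. Its wild-type values were 3409, 3253 and 2567 with LPS and 6962, 7734 and 6420.4 untreated. Ifi30 fell in knockout cells (-1.13 ± 0.12, adjusted p = 2.51e-05) and in wild-type cells (-1.20 ± 0.12, adjusted p = 2.53e-05).

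The class II chains themselves were not called in either genotype in the fit over all arrays. H2-Ab1, the β chain of the I-A molecule, had 8080.2, 4338 and 7419 in knockout cells with LPS, against 6200.4, 3252 and 6106 in untreated knockout cells. It had 5394, 5809 and 4866 in wild-type cells with LPS, against 5276, 3748 and 2473 in untreated wild-type cells. The differences were 0.36 ± 0.32, adjusted p = 0.366 in knockout cells and 0.55 ± 0.32, adjusted p = 0.231 in wild-type cells, and treated and untreated arrays overlapped in both. In knockout cells, where same-numbered samples were taken as pairs, the LPS array was higher in 3 of 3 pairs (adjusted p = 0.0733 with the pairs as a block). In wild-type cells H2-Ab1 was called with array weights (0.66, adjusted p = 0.0178). H2-Aa had 0.08 and -0.16 in knockout and wild-type cells, and H2-Eb1 had -0.07 and -0.24. Cd74, the invariant chain, had 6037, 3938 and 6034 in knockout cells with LPS, against 5996, 3786 and 6473 in untreated knockout cells, a difference of -0.01. Its wild-type difference was -0.25 (adjusted p = 0.435). The H2-O chains H2-Oa and H2-Ob lay between -0.24 and 0.21 and were not called.

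Of the class II regulators, Rfx5 rose and Rfxank fell in knockout cells. Rfx5, the DNA-binding subunit, had 677.7, 517.9 and 690.0 in knockout cells with LPS, against 294.6, 290.9 and 295.1 in untreated knockout cells. It had 216.6, 274.5 and 219.7 in wild-type cells with LPS, against 276.0, 241.4 and 213.5 in untreated wild-type cells. Rfx5 rose 2.12-fold in knockout cells (1.09 ± 0.13, adjusted p = 5.08e-05) and was not called in wild-type cells (-0.04 ± 0.13, adjusted p = 0.848), where the groups overlapped. Rfxank fell in knockout cells (-0.78 ± 0.12, adjusted p = 3.63e-04) and in wild-type cells (-0.44 ± 0.12, adjusted p = 0.0192), the second call being lost with quantile normalization (adjusted p = 0.115) and with arrays centred on the 75th percentile (adjusted p = 0.0607). That Rfxank call was also lost without wild-type LPS replicate 1 or 2 or untreated wild-type replicate 1 or 3 (adjusted p 0.0504 to 0.0835). Rfxap was not called (-0.21 and -0.13). Ciita had 178.9, 181.5 and 150.6 in knockout cells with LPS, against 210.3, 163.5 and 226.0 in untreated knockout cells, a difference of -0.22 that was not called, and -0.29 in wild-type cells.

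The class I-like genes split. Mr1, which presents vitamin metabolites to MAIT cells, had 129.3, 112.5 and 201.1 in knockout cells with LPS, against 787.4, 773.0 and 970.7 in untreated knockout cells. It had 129.9, 145.8 and 120.3 in wild-type cells with LPS, against 579.4, 634.3 and 599.4 in untreated wild-type cells. Mr1 fell 5.87-fold in knockout cells (-2.55 ± 0.18, adjusted p = 1.09e-06) and 4.59-fold in wild-type cells (-2.20 ± 0.18, adjusted p = 4.46e-06), and every treated array lay below every untreated one. It was the member with the largest difference in either LPS comparison. Cd1d1, which presents lipids to NKT cells, rose in knockout cells (0.73 ± 0.21, adjusted p = 0.0160) and was not called in wild-type cells (0.15 ± 0.21, adjusted p = 0.638), and its knockout call was lost without knockout LPS replicate 1 or 3 or untreated knockout replicate 2 (adjusted p 0.0537 to 0.0587). Over all 33 genes, 14 rose and 4 fell in knockout cells (54.5% called, against 45.7% of all genes), and 4 rose and 4 fell in wild-type cells (24.2%, against 28.1%). That wild-type split was 8 to 3 with arrays centred on the 75th percentile, where 51.1% of all genes were called and 7416 of those 10190 were higher, and 7 to 3 with quantile normalization, where 27.7% were called and 2459 of 5525 were higher.

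**Figure D2:**
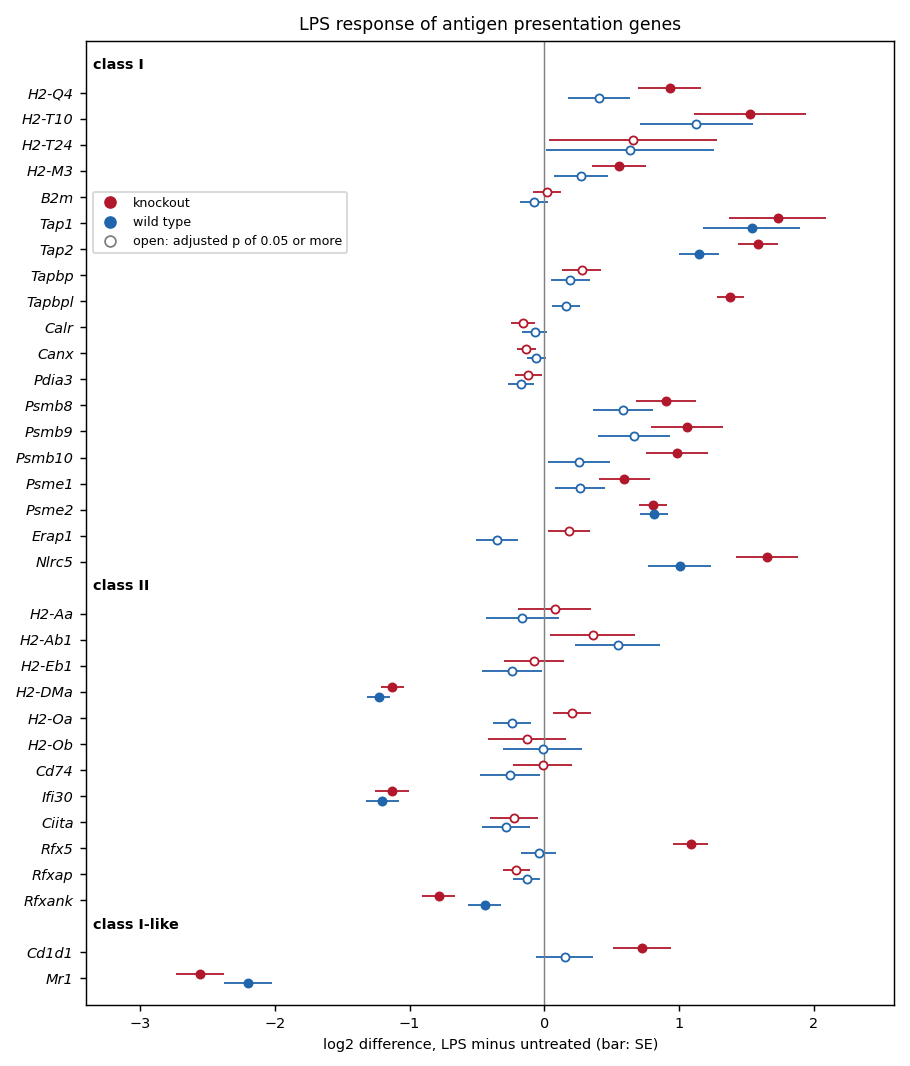
Log2 difference between LPS-treated and untreated cells for each measured gene, with standard error, in knockout and in wild-type cells, grouped by arm. Most class I genes lie to the right of 0 in knockout cells, while H2-DMa, Ifi30 and Mr1 lie to the left in both genotypes.

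The arms were set side by side through the mean log2 level of their genes on each array. The class I level was 11.27, 11.30 and 11.42 in knockout cells with LPS and 10.53, 10.42 and 10.75 in untreated knockout cells. It was 10.69, 11.09 and 10.24 in wild-type cells with LPS and 10.37, 10.24 and 10.09 in untreated wild-type cells. The class II level was 9.85, 9.50 and 9.78 in knockout cells with LPS, against 10.07, 9.63 and 9.92 in untreated knockout cells. Wild-type cells had a class II level of 9.44, 9.48 and 9.43 with LPS, against 10.05, 9.72 and 9.49 untreated. The class I median difference exceeded the class II one by 0.91 in knockout cells and by 0.51 in wild-type cells. On single arrays, the gap between the median levels of the arms varied by 0.295 (pooled SD) within a group. That spread is of levels and not of differences between groups. Within knockout cells, replicate 2 had the lowest level of the class II chains and Cd74 in both treatments (12.14, 11.48 and 12.01 with LPS, 12.07, 11.39 and 11.90 untreated). The B cell marker level was lowest on the same arrays (7.20, 6.78 and 7.33 with LPS, 7.42, 6.94 and 7.35 untreated). So was Ms4a1, the gene of CD20, with 243.6, 77.7 and 288.3 with LPS and 154.4, 87.3 and 188.9 untreated. Cd79b with LPS, Blk untreated and Cr2 in both treatments were not lowest there. The mast cell marker level was also lowest on these arrays (7.63, 6.56 and 8.35 with LPS, 7.60, 6.97 and 8.55 untreated). The macrophage marker level was too (12.40, 12.26 and 12.58 with LPS, 12.50, 12.37 and 12.69 untreated), but its genes did not move together. Fcgr1 had 942.2, 425.6 and 2455 with LPS and 966.5, 394.0 and 2452 untreated. Itgam was also lowest there in both treatments, and Cd14 with LPS. Csf1r, Lyz2 and Cd68 were highest there in both treatments, and Mertk with LPS. The large peritoneal macrophage markers were split on these arrays. Timd4 was highest there (719.3, 2608 and 1156 with LPS, 313.4, 1646 and 407.0 untreated), as was Cd5l. Gata6 was lowest there in both treatments (1570, 725.9 and 1240 with LPS, 1907, 1783 and 1933 untreated), and Icam2 was lowest with LPS. B cells carry class II molecules, and their part in the class II values was not tested.

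**Figure D3:**
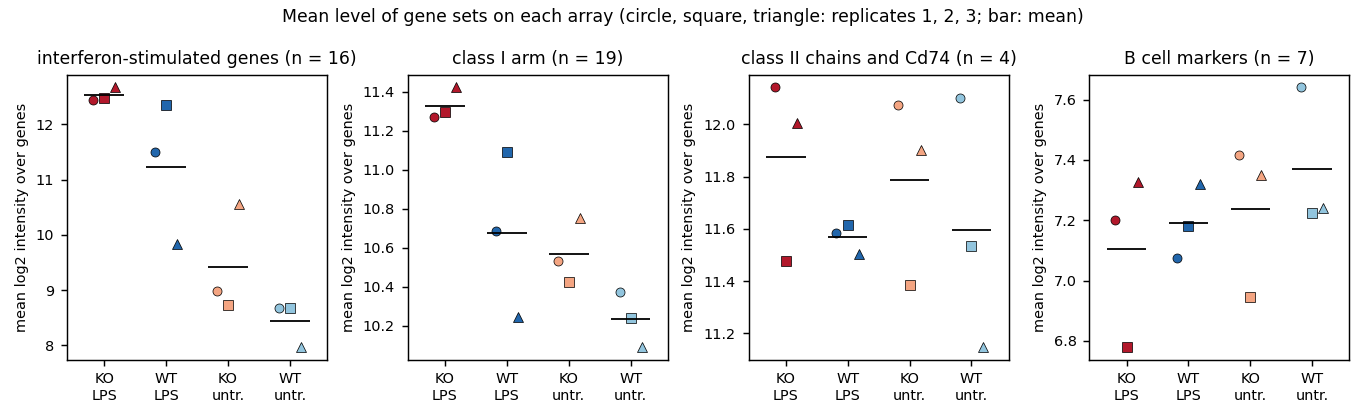
Mean log2 intensity per array of the interferon-stimulated genes, the class I arm, the class II chains with Cd74, and the B cell markers in the 4 groups, with 1 point per array. Replicate 3 of wild-type cells with LPS is low, and replicate 3 of untreated knockout cells is high, in the interferon-stimulated level and in the class I arm.

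With LPS, 11 of the 33 genes differed between knockout and wild-type cells, 10 higher in the knockout and Rfxank lower, where 8.14% of all genes were called, 3.28% higher and 4.87% lower. Class I held 6 of the 10 (H2-Q4, H2-M3, Tap2, Tapbpl, Psmb10 and Erap1), class II held Rfx5, H2-DMa and H2-Oa, and the last was Cd1d1. The median was 0.75 over class I and 0.24 over class II, against -0.01 over all genes. Some cell type marker levels (mean log2) also differed without overlap. The 4 large peritoneal macrophage markers had 9.14, 9.37 and 9.26 in knockout cells with LPS and 8.68, 8.75 and 8.87 in wild-type cells with LPS. These genes did not move together. Gata6 was lower in the knockout without overlap (1570, 725.9 and 1240, against 1729, 1723 and 2457 in wild type). Timd4 and Cd5l were higher without overlap, Cd5l at the 22.8th percentile of all genes, and Icam2 overlapped. With LPS, 4 small peritoneal macrophage or monocyte markers had 8.36, 8.08 and 8.22 in the knockout, against 8.66, 8.84 and 8.72 in wild type. Of these only Irf4 was lower in the knockout without overlap, and Ccr2 stood at the 7.45th percentile. The 7 dendritic cell markers had 7.03, 6.96 and 6.97 in the knockout, against 7.21, 7.09 and 7.34 in wild type. Each of these genes taken alone overlapped between genotypes. The 5 T cell markers had 6.62, 6.60 and 6.67 in the knockout, against 6.50, 6.43 and 6.50 in wild type. The macrophage marker level overlapped, but Mertk and Lyz2 were higher and Adgre1 and Itgam lower in the knockout without overlap. The part of these levels in the genotype difference was not tested. Rfx5 had 677.7, 517.9 and 690.0 in knockout cells with LPS, against 216.6, 274.5 and 219.7 in wild-type cells with LPS, a 2.65-fold difference (1.40 ± 0.13, adjusted p = 1.45e-04). Tapbpl averaged 1357 ± 68.5 in knockout cells with LPS and 543.1 ± 66.7 in wild-type cells with LPS (SD, n = 3 each), a 2.51-fold difference (1.33 ± 0.10, adjusted p = 3.84e-05). Both genes had every knockout array above every wild-type array.

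Cd1d1 had 1141, 783.9 and 1101 in knockout cells with LPS, against 297.6, 419.3 and 300.0 in wild-type cells with LPS, 2.97-fold higher in the knockout (1.57 ± 0.21, adjusted p = 0.00139). Erap1, the trimming peptidase, had 533.0, 594.4 and 541.4 in knockout cells with LPS, against 278.4, 396.7 and 239.8 in wild-type cells with LPS (0.90 ± 0.16, adjusted p = 0.00586). H2-Q4 had 3978, 3683 and 4600.0 in knockout cells with LPS, against 2018, 2754 and 1298 in wild-type cells with LPS (1.07 ± 0.23, adjusted p = 0.0158). In all of these the knockout arrays did not overlap the wild-type arrays. Psmb10 had 2242, 2660.3 and 2545 in knockout cells with LPS, against 1218, 1990.2 and 852.8 in wild-type cells with LPS (0.96 ± 0.23, adjusted p = 0.0266), again without overlap, although wild-type replicate 2 came close. Tap2 (0.60, adjusted p = 0.0308), H2-M3 (0.83, 0.0268), H2-Oa (0.66, 0.0151) and H2-DMa (0.41, 0.0126) were higher in the knockout by less. Rfxank had 257.4, 199.3 and 261.4 in knockout cells with LPS, against 335.9, 308.6 and 409.4 in wild-type cells with LPS (-0.55 ± 0.12, adjusted p = 0.0194).

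Several class I genes missed the threshold with sizes as large as those that passed. Nlrc5 was 0.75 higher in knockout cells (adjusted p = 0.0733) with no overlap of the arrays. None of its 19 probe sets was called by limma (0.75 to 1.51, adjusted p 0.0558 to 0.136), while all 19 had an unadjusted p under 0.05. Tap1 (0.84, adjusted p = 0.192), Psmb9 (0.84, 0.0827), Psmb8 (0.67, 0.0927) and H2-T10 (1.11, 0.135) had their wild-type arrays spread widely, with replicate 3 lowest. The chains H2-Ab1 (0.26), H2-Aa (0.36) and H2-Eb1 (0.21), Cd74 (0.40), Ciita (0.01) and B2m (0.20) were not called.

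The number of calls between genotypes with LPS depended on single arrays. It was 5 without wild-type replicate 1, 19 without wild-type replicate 2, 6 without wild-type replicate 3 and 7 without knockout replicate 3. The share of all genes called moved the same way. It was 3.78%, 10.8%, 3.57% and 5.4% in these refits, against 8.14% with all arrays. Nlrc5, Tap1, Tapbp, Psmb8, Psmb9, Psme1, Psme2 and H2-T10 were the genes gained without wild-type replicate 2. Tap2, Psmb10 and H2-M3 were lost without wild-type replicate 1, wild-type replicate 3 or knockout replicate 3. Psmb10 was also lost without knockout replicate 2, and H2-M3 without knockout replicate 1. Rfxank, the only lower gene, was lost without knockout replicate 2 or wild-type replicate 1 or 3 (adjusted p up to 0.0823), H2-DMa without wild-type replicate 1 (0.0560), and H2-Oa without wild-type replicate 3 (0.0696). H2-Q4 was lost without knockout replicate 3 (0.0560) or wild-type replicate 1 (0.0514). With both arrays of deviating interferon-stimulated genes removed the number of calls was 5, where 3.29% of all genes were called. The class I median was then 0.41, and Rfx5, Tapbpl, Cd1d1, Erap1 and H2-Q4 were still called. The calls of Rfx5, Tapbpl, Cd1d1 and Erap1 held in all 12 refits without a single array. With only the 6 arrays compared, where 2.47% of all genes were called, Erap1 (0.0543), H2-Q4 (0.0842) and Rfxank (0.108) were among those not called. The interferon-stimulated level was higher on every knockout array with LPS than on every wild-type array with LPS, and its part in the class I difference was not tested. The gap between class I and class II medians in this comparison, 0.51, was 0.20 without the deviating arrays.

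**Figure D4:**
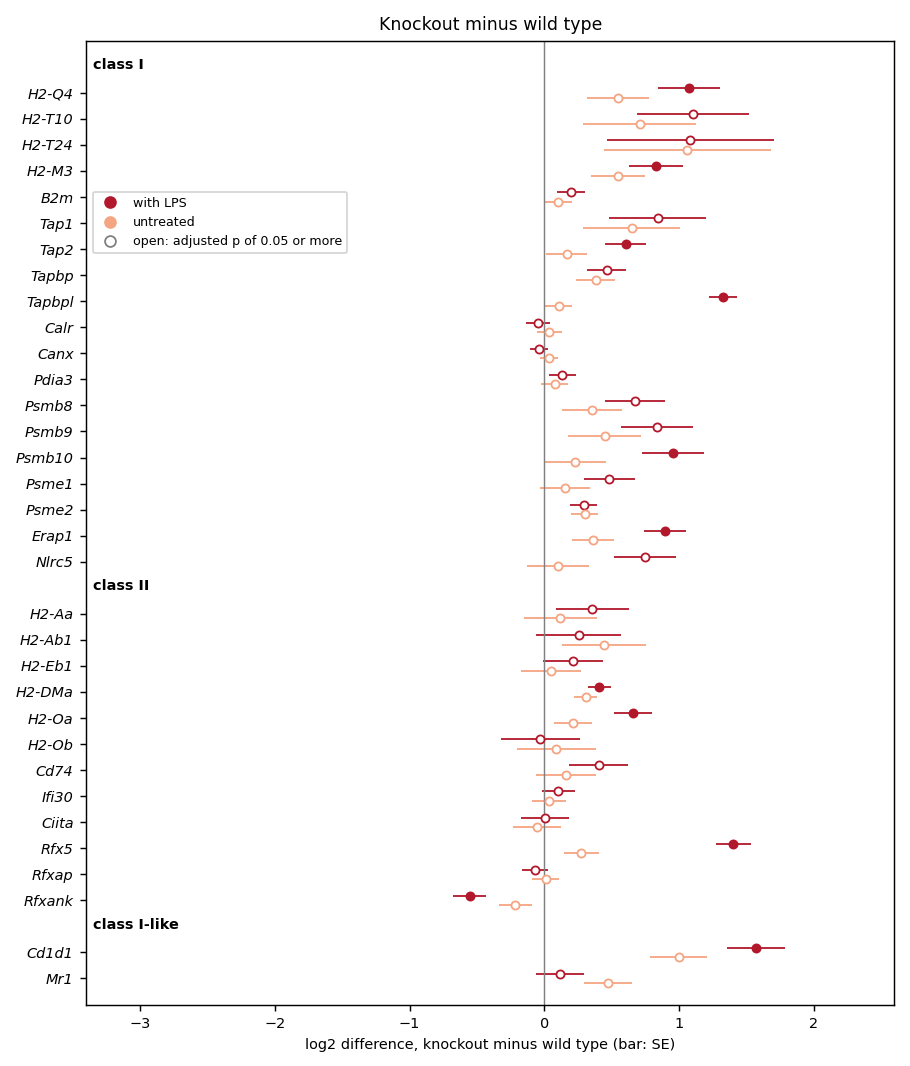
Log2 difference between knockout and wild-type cells for each measured gene, with standard error, with LPS and untreated, grouped by arm. With LPS, Rfx5, Tapbpl and Cd1d1 lie farthest to the right among the called genes, and untreated no gene is called.

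In untreated cells none of the 33 genes was called by limma, where 0.0752% of all genes were (0.0351% higher and 0.0401% lower), and 8 had an unadjusted p under 0.05. All 19 class I differences were positive (median 0.30), as were 10 of 12 of class II (median 0.10), against 39% of all genes. Without the 2 deviating arrays 15 of 19 class I differences were positive, with a median of 0.26, against 43.2% of all genes, and Nlrc5, Calr, Canx and Pdia3 were at or just below 0 (Pdia3 lowest, -0.03). Cd1d1 had 667.4, 434.5 and 749.9 in untreated knockout cells, against 324.5, 317.1 and 265.4 in untreated wild-type cells, with no overlap (1.00 ± 0.21, adjusted p = 0.159). It was called with array weights (adjusted p = 0.0234). H2-T24 had 719.0, 366.4 and 1827 in untreated knockout cells, against 429.8, 495.5 and 247.9 in untreated wild-type cells, a difference of 1.06 with knockout replicate 3 far above the others (adjusted p = 0.674). Rfx5 (0.28) and Tapbpl (0.11) differed little between untreated genotypes and were not called. Some cell type marker levels (mean log2) also differed here without overlap. Large peritoneal macrophage markers had 8.45, 9.48 and 8.69 in the knockout, against 8.28, 7.97 and 8.13 in wild type. Small peritoneal macrophage or monocyte markers had 8.11, 8.39 and 8.01, against 8.73, 8.51 and 8.44. Dendritic cell markers had 7.46, 7.32 and 7.32, against 7.66, 7.76 and 7.91. Not every gene of a set did so alone, and the part of these levels was not tested.

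The LPS response itself differed between genotypes for 2 of the 33 genes, Tapbpl and Rfx5, where 0.747% of all genes were called, 0.301% higher and 0.446% lower. The response of Tapbpl was larger in knockout cells by 1.22 ± 0.14, adjusted p = 0.00393, and this held under every alternative run. The response of Rfx5 was larger by 1.13 ± 0.19, adjusted p = 0.0202, and was lost without wild-type LPS replicate 1 or 3, untreated knockout replicate 1, or untreated wild-type replicate 1 or 2 (adjusted p up to 0.0768), and without both deviating arrays (1.08, adjusted p = 0.105). Psmb10 (0.73), Nlrc5 (0.65), Cd1d1 (0.57) and Erap1 (0.54) came next and were not called. Without wild-type LPS replicate 2, Psmb10 and Erap1 were called as well (adjusted p = 0.0306 and 0.0438). With all arrays, for class I genes other than Tapbpl a larger rise in knockout cells than in wild-type cells was therefore not shown by this test.

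Among other genes of antigen processing, 23 of 27 listed were measured. Of these, 4 rose and 12 fell in knockout cells with LPS, and 6 rose and 10 fell in wild-type cells, a called share of 69.6% in each against 45.7% and 28.1% of all genes. The lysosomal proteases Ctss (-0.27 in knockout, -0.32 in wild type), Ctsb (-0.31, -0.43) and Lgmn (-0.75, -0.71) fell in both genotypes. Psmb6, the constitutive subunit that Psmb9 replaces, rose in both (0.76 and 0.74). Between genotypes with LPS, Ide was higher (0.59) and Npepps (-0.46) and Ctsd (-0.23) were lower in the knockout. That is 3 of 23 genes or 13%, where 8.14% of all genes were called. Of 20 listed regulators 19 were measured, and 7 rose and 5 fell in knockout cells with LPS, while 5 rose and 3 fell in wild-type cells. These are 63.2% and 42.1% called, against 45.7% and 28.1% of all genes. Irf1, an interferon-induced activator of class I promoters, had 4543, 7170.2 and 5455 in knockout cells with LPS, against 1671, 2638 and 1131 in wild-type cells with LPS (1.72 ± 0.27, adjusted p = 0.00303). Irf2 (0.83) and Tyk2 (0.45) were also higher and Ifngr2 (-0.51) lower in the knockout with LPS. With Irf1 these are 4 of 19 regulators or 21.1%, against 8.14% of all genes. Irf1 was 1.76 higher with LPS in knockout cells. The kinase Jak2 rose in both genotypes (2.01 and 2.11) and the receptor Ifngr1 fell in both (-0.74 and -1.23).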

How the data were processed

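RNA of 12 samples was measured on Affymetrix whole-transcript arrays. Per the submitters' processing notes, the authors summarised probe sets by RMA (Affymetrix Expression Console 1.1). They deposited intensity values on a linear scale, and further settings were not given in the sources used here. Since log2 values had been assumed in the design, each deposited intensity was turned into its log2, with no pseudocount. Of 35556 probe sets, 21789 have 1 gene symbol, 1621 several and 12146 none. Each gene was read from its brightest probe set among those with 1 symbol, so 19938 genes were tested. No 2 arrays held identical values, and arrays of 1 group correlated at 0.982 to 0.996. The number of arrays limits the precision.

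Groups came from the sample titles. limma 3.58.1 in R 4.3.3 fitted 4 group means to all 12 arrays (8 residual degrees of freedom), and 5 contrasts were tested with Benjamini-Hochberg adjustment over all genes. The fit was tested on simulated data. Same-numbered knockout samples deviated together (correlations 0.32, 0.57 and 0.46 between treated and untreated arrays), so the numbers were taken to pair the treatments there, from the data and not from the labels. In wild-type cells (-0.07, 0.14 and 0.36) and between genotypes they were not. Alternatives were quantile normalization, centring on the 75th percentile, a filter on dim genes (log2 of 6 on 3 arrays), array weights, a replicate block, robust eBayes with an intensity trend, the median over probe sets, only the arrays compared, and leaving out each array. Leaving out the 2 arrays of deviating interferon-stimulated level, a block within each genotype, and all Nlrc5 probe sets were chosen after seeing the data. The members and gene lists were chosen with earlier results of these data known. Values on each array were given for up to 6 called genes per contrast with the largest differences and for Ciita, H2-Ab1, Cd74, Nlrc5, B2m, Tap1, Psmb8 and Nfkbiz. Some other genes got them beside a result.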

Additional observations from a re-analysis of the deposited data

Results flagged for a closer look

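The LPS response of Tapbpl, the tapasin relative, was larger in knockout than in wild-type cells by 1.22 on the log2 scale, and that of Rfx5, the DNA-binding RFX subunit, by 1.13. Both are listed because the difference between the genotypes' responses itself passed the test (limma, adjusted p = 0.00393 for Tapbpl and 0.0202 for Rfx5, 3 arrays in each of the 4 groups). On each gene the 3 knockout arrays with LPS lay above all arrays of the other groups. No group was large enough to test a single array as an outlier.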

How the results depend on the processing

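No called direction turned in any alternative. When arrays were weighted, the count of members called was 14 in wild-type cells with LPS and 17 between genotypes with LPS. Weighting also called Cd1d1 (1 gene) between untreated genotypes. Of all genes 50.7%, 16.5% and 0.231% were called with weights, against 28.1%, 8.14% and 0.0752% in the main fit. The count of members was 5 between genotypes with LPS when only those 6 arrays were fitted, where 2.47% of all genes were called. With both arrays of deviating interferon-stimulated genes removed the count was 14 for LPS in wild type and 5 between genotypes with LPS. It was 1 for the difference of responses. Of all genes 27.4%, 3.29% and 0.226% were called in these comparisons. The gap between arms was then 0.20 between genotypes with LPS. The block within each genotype gave 13 for LPS in wild type, where the samples share only a number (H2-Ab1 among those gained, adjusted p = 0.0202). It gave 19 for LPS in knockout. Of all genes 30.5% and 47.1% were called with this block. The replicate block gave 17 calls for LPS in knockout (45.4% of all genes), 9 in wild type (28.1%) and 11 between genotypes with LPS (8.44%). In wild type H2-T10 was gained (adjusted p = 0.0411). Beside H2-M3, H2-T10 and Tapbp, no call in the knockout or between genotypes changed with either block. Leaving out 1 array gave 15 to 19 calls for LPS in knockout, 7 to 14 in wild type (14 without wild-type LPS replicate 3), 5 to 19 between genotypes with LPS, 0 untreated and 1 to 4 for the difference of responses (1 without wild-type LPS replicate 1 or 3, untreated knockout replicate 1, or untreated wild-type replicate 1 or 2; 4 without wild-type LPS replicate 2). In the same order, these refits called 38.5% to 45.5%, 22% to 29.8%, 3.57% to 10.8%, 0.0301% to 0.115% and 0.276% to 1.83% of all genes. The gap between arms then ran from 0.70 to 1.11 for LPS in knockout and 0.32 to 0.74 in wild type. Between genotypes with LPS it ran from 0.20 to 0.77. The causes of these shifts were not tested beyond the arrays named. The dim filter, the trend fit and the median over probe sets changed no call of a member. With 3 arrays a group, small differences can be missed, and signal near the array's background was not separated from it here.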
